A study of Mus musculus with 8 samples.

Results

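The transcripts of 8 deoxyribonucleases were followed in bone marrow pro-B cells of mice whose blood cells lacked the miR-15a and miR-15b clusters. The genes were *Dnase1*, *Dnase1l1*, *Dnase1l2*, *Dnase1l3*, *Dnase2a*, *Dffb*, *Endog* and *Trex1*, taken by symbol from a table of 24746 genes. *Dnase1l3* was chosen because it is among the genes with the largest decrease in this very comparison, so its values are given as a description with no test. The other 7 were chosen by enzyme function. The study compared 4 DKO mice with 4 control mice. DKO mice carried floxed alleles of both clusters (genotype miR-15a/bfl/fl with Vav-Cre) and control mice wild-type alleles (miR-15a/b+/+ with Vav-Cre), both on a C57BL/6 background and 10 to 12 weeks old. Vav-Cre, which acts throughout the hematopoietic system, was carried by both groups, so other blood cells of DKO mice also lacked both clusters. The floxed alleles, made in embryonic stem cells of a mixed strain background and then backcrossed, were present in DKO mice only. A further cluster of the miR-15 family was left intact. The paper describes that cluster as found mainly outside immune cells, but does not exclude that it compensates in part. Pro-B cells were sorted by surface markers of early B lineage cells, among them B220 and c-KIT and the absence of IgM, and the RNA of each mouse was amplified into 1 library and sequenced.

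Deoxyribonucleases of the DNase I family are secreted or membrane-bound enzymes that cut DNA outside cells or at their surface. DNASE1L3 is known for digesting chromatin in the vesicles that dying cells release, is made mainly by macrophages and dendritic cells, and its loss leads to antibodies against DNA and lupus-like disease in mice and humans. DNase II works in lysosomes on engulfed DNA, CAD (the product of *Dffb*) and endonuclease G act on the DNA of dying cells, and TREX1 degrades DNA in the cytosol before it can engage the sensor cGAS.

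The deleted microRNAs share a seed, the stretch that pairs with target transcripts, and are shown because the search for matching sites in the nuclease transcripts rests on it. Sequences are from RefSeq (GRCm38.p6), with seed bases 2 to 8 in capitals.
mmu-miR-15a-5p: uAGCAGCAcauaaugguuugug
mmu-miR-15b-5p: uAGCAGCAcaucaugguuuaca
mmu-miR-16-5p: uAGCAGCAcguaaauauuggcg
miR-15a-5p lies within the host gene *Dleu2* at chr14:61632075-61632096 on the minus strand and miR-15b-5p within *Smc4* at chr3:69009775-69009796 on the plus strand. miR-16-5p is made from both clusters, at chr14:61631936-61631957 and chr3:69009918-69009939.

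Matches to this seed were looked for on the transcript strand, in the longest 3′ UTR that GENCODE M21 gives for a gene, as TGCTGCTA (8mer), TGCTGCT (7mer-m8) or GCTGCTA (7mer-A1), each gene being classed by its longest match, in that order. Of the 8 nucleases only *Dnase2a* had a match, a 7mer-m8 that starts at base 512 of a UTR of 676 bases. It is printed with 10 bases on either side and the match in capitals.
Dnase2a site: acaagtacagTGCTGCTgagccacact
The UTR of *Dnase1l3* has 3226 bases and held none of the 3 motifs. Among 11810 tested genes with a 3′ UTR, 27.9% held at least 1 match and 20.1% had the 7mer-m8 as their best match. The remaining 6 UTRs were between 44 and 969 bases long.

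Total counts were between 38073065 and 43288133 in DKO libraries and between 38257907 and 41530921 in control libraries. After a filter on low counts 12714 genes were tested, all 8 nucleases among them, and 337 were higher and 245 lower in DKO cells at an adjusted p under 0.05. Mature microRNAs are not captured by such libraries. The precursor *Mir16-1* had 0 reads in each of the 4 DKO libraries, against 5, 1, 2 and 4 in control libraries, and the host transcript *Dleu2* had 6986 to 9210 counts in DKO and 1404 to 1762 in control libraries. Pro-B cell markers (12 of 12 detected, among them *Rag1* and *Igll1*) summed to 32880 to 36490 CPM (counts scaled to library size) in DKO and 30730 to 34770 CPM in control libraries. Most of that sum was *Igll1*, *Vpreb1* and *Cd79a*. By edgeR 2 of the 12 were higher in DKO cells, beside 2.65% of all genes tested. They were *Kit* (41.5 CPM in DKO and 17.9 CPM in control cells, adjusted p = 0.0081) and *Il7r* (456 and 236 CPM, adjusted p = 0.00266). The labels give no sex. DKO 3, DKO 4 and control 1 carried 6361 to 6759 reads of 4 Y-linked genes, and the other 5 libraries 0 to 8. Neutrophil markers summed to 1849 to 2899 CPM in DKO 3, DKO 4, control 1 and control 4, and to 315 to 623 CPM in the other 4 libraries.

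*Dnase1l3* was the member with the largest difference. The gene (ENSMUSG00000025279.7) lies on the minus strand at chr14:7965190-7994182 (GRCm38), with 8 exons and an exon length of 3699 bases. It had 75, 144, 36 and 73 counts in DKO mice 1 to 4, against 575, 906, 970 and 908 counts in control mice 1 to 4. On the scale of CPM these were 1.73, 3.77, 0.859 and 1.96 in DKO cells, and 15.01, 22.2, 22.7 and 23.2 in control cells. The groups did not overlap, and the lowest control library was 3.98 times the highest DKO library. The mean was 2.08 ± 1.22 CPM in DKO and 20.8 ± 3.88 CPM in control cells (SD, n = 4 each), a 10.0-fold lower level in DKO cells with a log2 fold change of -3.33 (standard error 0.36). Of all genes tested 1.93% were called lower in DKO cells and 6.21% had all DKO libraries below all control libraries, and since *Dnase1l3* was chosen on this contrast nothing is read from its place among them. It ranked 10 by log2 fold change among the 245 lower genes, and 2 among the 194 of these with a mean of at least 5 CPM. In a bulk sample, fewer cells that express a gene and less RNA per cell cannot be told apart.

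In relative terms the level of *Dnase1l3* varied more among DKO mice than among controls. The SD in CPM was smaller in DKO cells (1.22, against 3.88 in control cells), and the difference in spread was not tested. The highest DKO library was 4.39 times the lowest, and the highest control library 1.55 times the lowest. DKO 2 was the highest of its group and DKO 3 the lowest, while control 1 stood below the other 3 controls, which lay within 22.2 to 23.2 CPM. Control 1 is also the only control library with more than 8 Y-linked reads. Among the 3 libraries with such reads *Dnase1l3* had 0.859 and 1.96 CPM in DKO cells and 15.01 CPM in control 1, and among the other 5 it had 1.73 and 3.77 CPM in DKO and 22.2 to 23.2 CPM in control cells. The first of these sets held control 1 as its only control library, and the part of sex in the difference was not tested.

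**Figure D1:**
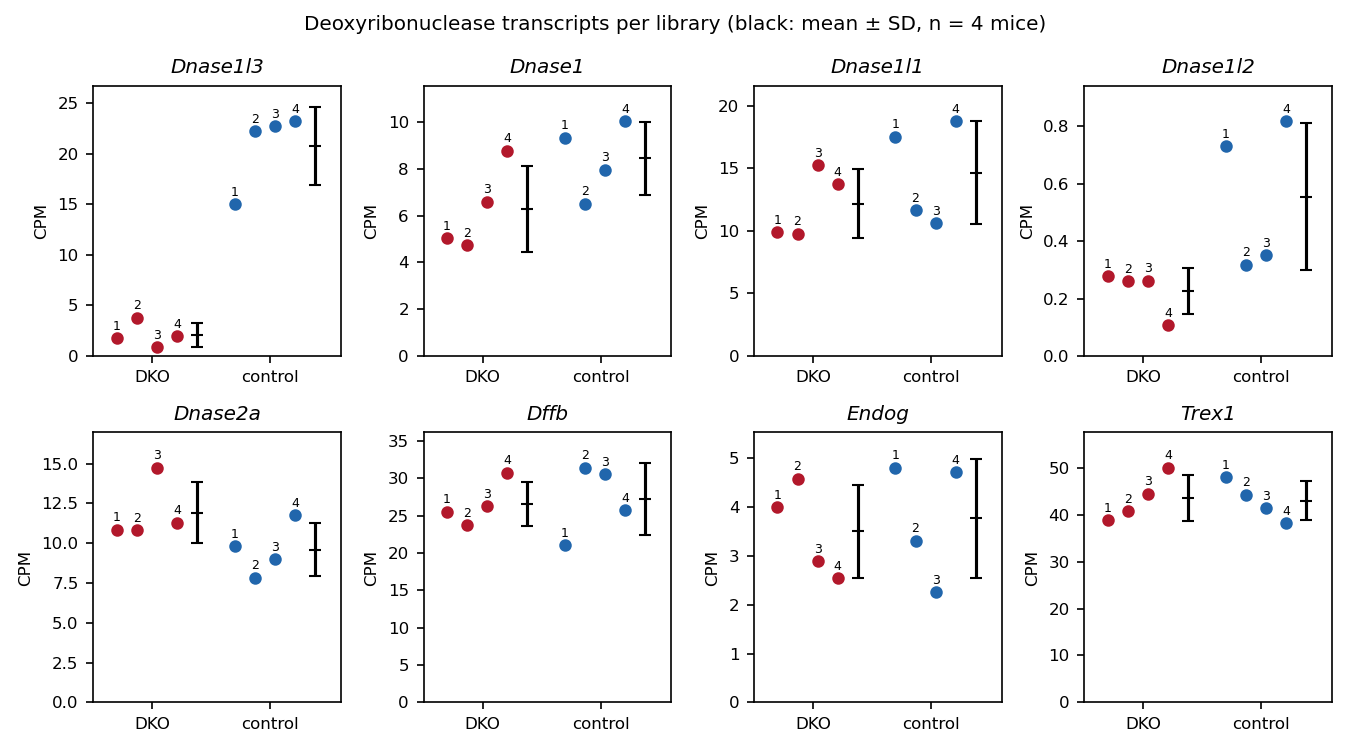
CPM of the 8 deoxyribonucleases in each library (y axis, from 0), with DKO mice in red and control mice in blue, numbered by replicate, and the mean ± SD of each group in black (n = 4). *Dnase1l3* lies between 0.859 and 3.77 CPM in DKO and between 15.01 and 23.2 CPM in control cells, and in the other panels except *Dnase1l2* the groups overlap.

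*Dnase1* (chr16:4037036-4040024, plus strand), the founding member of the family and a secreted enzyme that cuts free DNA in blood, gut and kidney, had 5.04, 4.74, 6.61 and 8.79 CPM in DKO cells and 9.34, 6.52, 7.97 and 10.1 CPM in control cells. The groups overlapped, with DKO 4 above control libraries 2 and 3. The log2 fold change was -0.43 (standard error 0.23) and did not pass the threshold (adjusted p = 0.32, edgeR quasi-likelihood test with Benjamini-Hochberg adjustment over all genes tested). The 95% interval of the DKO over control ratio was 0.526 to 1.05.

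*Dnase1l1* (chrX:74273217-74282333, minus strand) encodes a family member anchored in the cell membrane. It had 9.91, 9.79, 15.3 and 13.7 CPM in DKO cells, against 17.5, 11.7, 10.6 and 18.8 CPM in control cells, and did not pass the threshold (log2 fold change -0.27, standard error 0.22, edgeR adjusted p = 0.541, ratio interval 0.593 to 1.16). Its 4 highest libraries were DKO 3, DKO 4, control 1 and control 4, the same 4 that were highest in neutrophil markers. Within these it had 15.3 and 13.7 CPM in DKO and 17.5 and 18.8 CPM in control cells. Within the 4 libraries that were low in neutrophil markers it had 9.91 and 9.79 CPM in DKO and 11.7 and 10.6 CPM in control cells. DKO libraries were below control libraries in both sets, which were formed after the data were seen and hold only 2 libraries of each group. With the summed neutrophil markers as a covariate, a setting added after the data were seen, the log2 fold change was -0.18 (edgeR adjusted p = 0.403). *Dnase1* showed a related order, DKO 3 and 4 and control 1 and 4 being the highest 2 of their groups.

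*Dnase1l2* (chr17:24440768-24443101, minus strand), best known from differentiating keratinocytes of skin and hair, was near the limit of detection. It had 12, 10, 11 and 4 counts in DKO libraries and 28, 13, 15 and 32 counts in control libraries. These correspond to 0.277, 0.262, 0.262 and 0.107 CPM in DKO cells and 0.731, 0.319, 0.352 and 0.818 CPM in control cells. The groups did not overlap, which held in either direction for 13.8% of all genes tested. The log2 fold change of -1.27 (standard error 0.54) did not pass the threshold (edgeR adjusted p = 0.215), and the ratio interval was 0.183 to 0.944. Control 1 and control 4, which had the most neutrophil markers of all libraries, also had the most *Dnase1l2* reads, whereas DKO 3 and DKO 4, the other libraries high in these markers, had 11 and 4 reads, DKO 4 being the lowest of all. In 2 settings added after the data were seen, the log2 fold change was -1.11 with the neutrophil markers as a covariate (edgeR adjusted p = 0.277) and -0.31 in the 4 libraries low in these markers (edgeR adjusted p = 0.85). 

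*Dnase2a* (chr8:84908624-84911461, plus strand) encodes the lysosomal acid enzyme DNase II, which macrophages use to break down the nuclei that erythroid precursors expel. It had 10.8, 10.8, 14.7 and 11.3 CPM in DKO cells, against 9.81, 7.84, 8.98 and 11.7 CPM in control cells. DKO 3 and control 4 were the highest of their groups, and control 4 was above 3 of the 4 DKO libraries. The log2 fold change was 0.31 (standard error 0.17, edgeR adjusted p = 0.326), with a ratio interval of 0.962 to 1.61. This is the member with a seed match of the deleted microRNAs.

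Neither of the nucleases that act inside dying cells passed the threshold. *Dffb* (chr4:153964449-153975081, minus strand), whose product CAD cuts chromatin between nucleosomes once caspases remove its inhibitor, had 25.5, 23.8, 26.3 and 30.7 CPM in DKO cells and 21.1, 31.4, 30.6 and 25.8 CPM in control cells (log2 fold change -0.03, standard error 0.14, edgeR adjusted p = 0.924, ratio interval 0.789 to 1.21). *Endog* (chr2:30171524-30174069, plus strand), which encodes the mitochondrial endonuclease G, had 4.00, 4.58, 2.89 and 2.55 CPM in DKO cells and 4.80, 3.31, 2.25 and 4.71 CPM in control cells (log2 fold change -0.10, standard error 0.30, edgeR adjusted p = 0.886, ratio interval 0.593 to 1.46). For neither gene did the groups separate. *Endog* shares 379 exon bases with *Spout1* on the opposite strand, and as no source used here states whether the counting was stranded, reads of the pair cannot be told apart there.

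*Trex1* (chr9:109057932-109059723, minus strand), the exonuclease of cytosolic DNA, was the most abundant of the 8 and differed least. It had 38.9, 40.7, 44.5 and 50 CPM in DKO cells and 48.0, 44.2, 41.4 and 38.2 CPM in control cells, with means of 43.5 ± 4.91 CPM in DKO and 42.96 ± 4.17 CPM in control cells (SD, n = 4 each). Between the groups the log2 fold change came to 0.02 (standard error 0.11, edgeR adjusted p = 0.953) and the ratio interval 0.854 to 1.20.

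Thus 0 of the 7 nucleases other than *Dnase1l3* passed the threshold by edgeR's quasi-likelihood test, by its likelihood ratio test, by DESeq2 or by limma-voom, and 1 of the 7 (*Dnase1l2*) had an unadjusted p under 0.05. Among all genes tested 4.58% passed the threshold and 20.2% had an unadjusted p under 0.05.

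Between genes, levels were compared as RPKM, that is, CPM divided by the exon length in kilobases. In DKO cells the order was *Trex1* (38.3 RPKM), *Dffb* (12.98), *Dnase2a* (7.25), *Dnase1l1* (7.06), *Dnase1* (4.45), *Endog* (3.39), *Dnase1l3* (0.562) and *Dnase1l2* (0.184). In control cells it was *Trex1* (37.8 RPKM), *Dffb* (13.3), *Dnase1l1* (8.50), *Dnase1* (5.99), *Dnase2a* (5.84), *Dnase1l3* (5.62), *Endog* (3.65) and *Dnase1l2* (0.449). In DKO cells the neighbours from *Dnase2a* to *Endog* overlapped in range, whereas *Dnase1l3* lay below all *Endog* values and above all *Dnase1l2* values. In control cells the neighbours from *Dffb* to *Endog* overlapped, so that *Dnase1l3* could not be separated there from *Dnase1*, *Dnase2a* or *Endog*. *Dnase1l3* sat at percentile 15.3 of all genes tested in DKO cells and at percentile 48.1 in control cells. Its share of the summed RPKM of the 8 genes was 0.698, 1.48, 0.299 and 0.636% in DKO mice 1 to 4, against 4.80, 7.52, 7.96 and 7.58% in control mice 1 to 4. The other 7 genes together gave 66.7 to 82.6 RPKM in DKO and 71.1 to 80.5 RPKM in control cells, ranges that overlap.

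**Figure D2:**
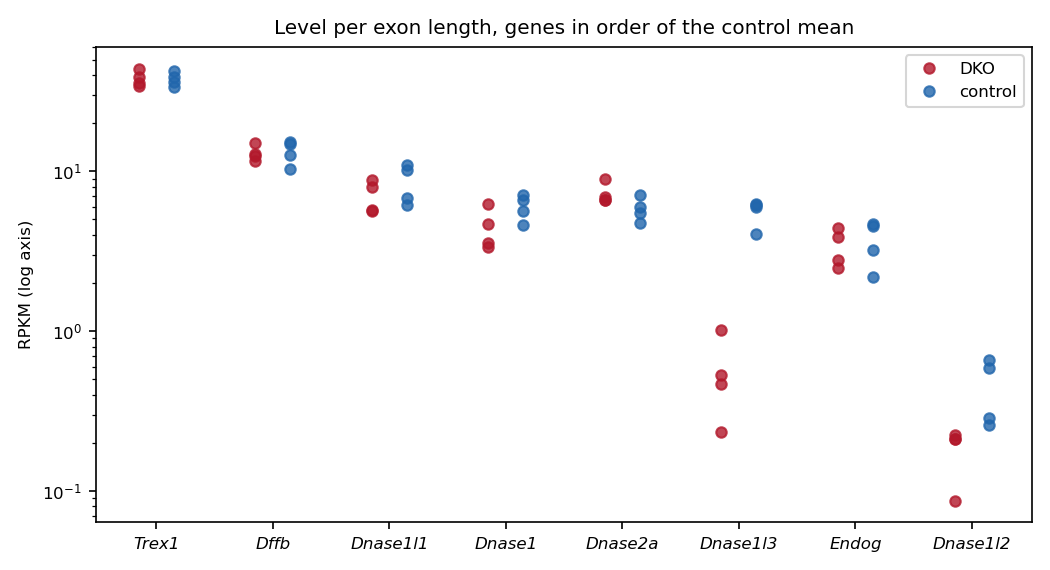
RPKM (CPM per kilobase of exon) of each nuclease and library on a log axis, with DKO libraries in red to the left of control libraries in blue, genes in order of the control mean. *Dnase1l3* averages 0.562 RPKM in DKO and 5.62 RPKM in control cells, while *Trex1* averages 38.3 and 37.8 RPKM in the same order of groups.

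Macrophages are a known source of DNASE1L3, and the summed level of their markers was lower in DKO libraries. The 14 markers summed to 13.3, 9.79, 34.0 and 38.8 CPM in DKO libraries 1 to 4, against 38.8, 120, 43.2 and 51.2 CPM in control libraries 1 to 4. The ranges met without overlapping, at 38.78 CPM in DKO 4 and 38.79 CPM in control 1. Of 12 markers tested all 12 were on the lower side in DKO cells (median log2 fold change -1.32), beside 6656 of all 12714 genes tested. By edgeR 2 of the 12 passed the threshold, beside 1.93% of all genes called lower. They were *Timd4* (0.0847 CPM in DKO and 0.692 CPM in control cells) and *Cd5l* (0.1248 CPM in DKO and 1.37 CPM in control cells). The scavenger receptor *Marco* had reads in control 2 only. The complement genes *C1qa*, *C1qb* and *C1qc* gave most of the sum.

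Within the groups the relation of *Dnase1l3* to these markers was mixed. Controls 1, 3 and 4 stood in the same order in both, control 1 being the lowest of its group in both. DKO 2, with the lowest marker sum of all libraries, had the most *Dnase1l3* of the DKO group (3.77 CPM), while DKO 1, 3 and 4 had 1.73, 0.859 and 1.96 CPM at rising marker sums. DKO 4 and control 1 had nearly equal marker sums, and *Dnase1l3* was at 1.96 CPM in DKO 4 and at 15.01 CPM in control 1. Control 2, with the highest marker sum of all libraries, had 22.2 CPM of *Dnase1l3* and lay within the range of the other controls. With the logarithm of the marker sum as a covariate, a setting added after the data were seen, the log2 fold change of *Dnase1l3* was -3.83, against -3.33 without it. As the marker sum itself did not overlap between the groups, this fit cannot separate macrophage content from genotype. The part of macrophages in the *Dnase1l3* difference was not tested.

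Other cell types that could pass the sort were also measured. Conventional dendritic cell markers, another known source of DNASE1L3, summed to 23.8 to 43.2 CPM in DKO and 17.9 to 25.7 CPM in control libraries. Nearly all of that sum was *Ccr7* (33.7 CPM in DKO and 22.2 CPM in control cells, edgeR adjusted p = 0.101), while the other 6 markers, *Zbtb46*, *Xcr1* and *Clec9a* among them, averaged between 0.0131 and 0.277 CPM in DKO and between 0.0621 and 0.394 CPM in control cells. The plasmacytoid dendritic cell list summed to 625 to 768 CPM in DKO and 594 to 754 CPM in control libraries. Most of that sum was *Tcf4* (319 CPM in DKO and 329.5 CPM in control cells), *Irf8* (253 and 228 CPM) and *Bst2* (94.4 and 106 CPM). Of the 9 tested genes of the list 3 were higher in DKO cells by edgeR (*Cox6a2*, *Cd300c* and *Pacsin1*), beside 2.65% of all genes tested. The defining gene of the list, *Siglech*, had 14, 28, 8 and 6 reads in DKO libraries and 70, 14, 10 and 56 reads in control libraries, with overlapping groups. Markers of later B cell stages summed to 526 to 599 CPM in DKO and 331 to 473 CPM in control libraries without overlap. Most of that sum was *Cd72* (511 CPM in DKO and 320 CPM in control cells), while *Fcer2a*, which encodes CD23, was lower (0.275 CPM in DKO and 2.20 CPM in control cells), both past the threshold by edgeR. Of the 7 genes of that list tested, 5 had a negative log2 fold change (median -0.74), beside 6656 of all 12714 genes tested. Among the 5 were *Ms4a1* (-1.14) and *Cr2* (-1.57), which did not pass. The part of these cell types in the *Dnase1l3* difference was not tested. In the 4 libraries low in neutrophil markers alone the log2 fold change of *Dnase1l3* was -3.03, and with these markers as a covariate it was -3.41, both settings being added after the data were seen.

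**Figure D3:**
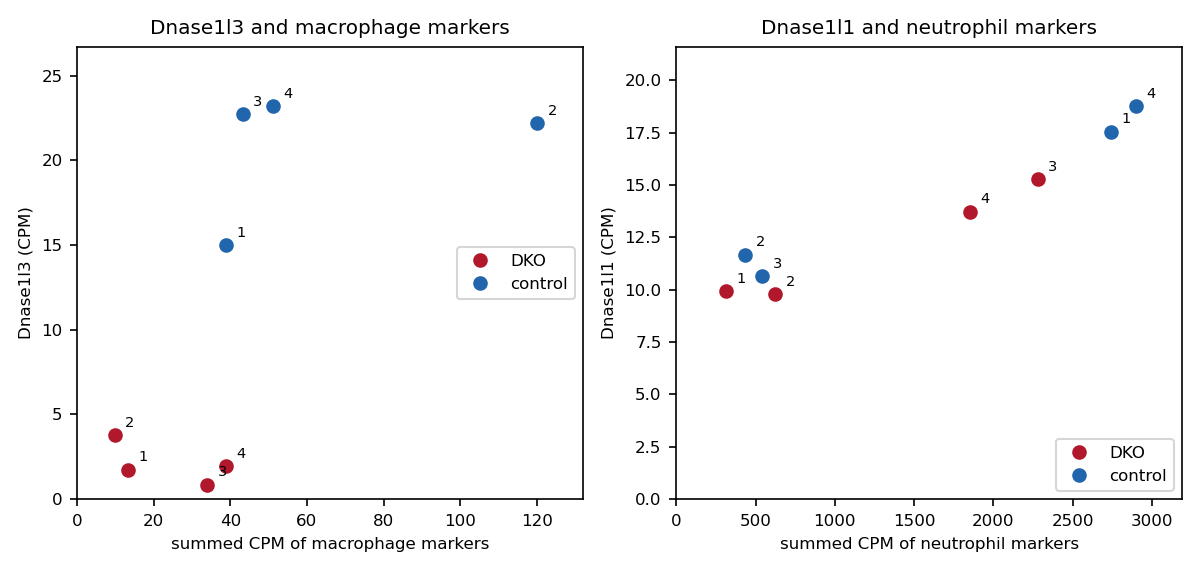
Each point is a library, DKO in red and control in blue, numbered by replicate. On the left *Dnase1l3* (CPM) is plotted against the summed CPM of 14 macrophage markers, where DKO 4 and control 1 share an x position of 38.8 CPM at 1.96 and 15.01 CPM of *Dnase1l3*, and on the right *Dnase1l1* against 8 neutrophil markers, where the 4 libraries with 1849 to 2899 CPM of markers have 13.7 to 18.8 CPM of *Dnase1l1*.

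*Dnase1l3* shares chromosome 14 with the deleted *Mir15a* and *Mir16-1* and lies 53.6 Mb from their host gene *Dleu2*. The part of the shared chromosome in the *Dnase1l3* difference was not tested. Within 1 Mb of *Dnase1l3* 19 other genes were listed and 6 were tested. By edgeR 1 of the 6 was higher and 1 lower, beside 2.65% higher and 1.93% lower among all genes tested. *Abhd6*, which encodes a monoacylglycerol lipase and starts 8705 bases from the start of *Dnase1l3*, running in the other direction, had 419, 405, 366 and 318 counts in DKO and 673, 677, 732 and 729 counts in control libraries. It fell to 9.38 ± 0.954 CPM in DKO cells, against 17.5 ± 0.864 CPM in control cells (SD, n = 4 each, log2 fold change -0.90, standard error 0.12, edgeR adjusted p = 0.00333). All its DKO libraries lay below all control libraries, which held for 6.21% of all genes tested. *Pdhb*, a subunit of pyruvate dehydrogenase, was higher (320 CPM in DKO and 247 CPM in control cells, log2 fold change 0.37, edgeR adjusted p = 0.0254). *Pxk*, *Kctd6* and *4930452B06Rik* did not pass and had log2 fold changes of -0.14, -0.05 and 0.19.

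**Figure D4:**
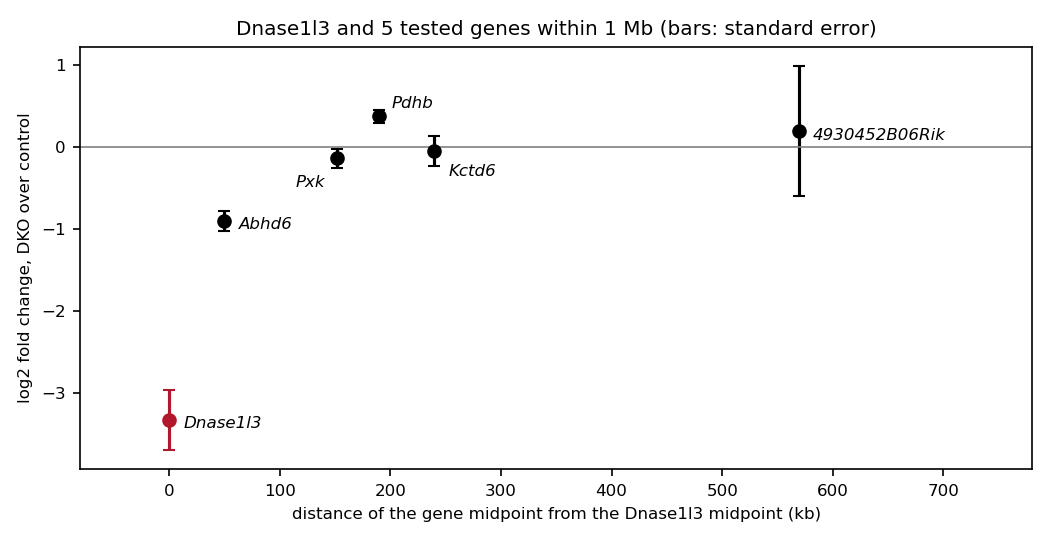
Log2 fold change of DKO over control (y axis, bars are standard errors) for *Dnase1l3* in red and 5 of the 6 tested genes within 1 Mb in black, by distance of the gene midpoints in kb. *Dnase1l3* stands at -3.33, its neighbour *Abhd6* at -0.90, and the other 4 between -0.14 and 0.37.

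The genes next to the other 7 nucleases gave no call. Among them were *Trap1* and *Slx4* beside *Dnase1*, *Snora70* beside *Dnase1l1*, *Eci1* and *E4f1* beside *Dnase1l2*, *Klf1* and *Mast1* beside *Dnase2a*, *A430005L14Rik* beside *Dffb*, *Tbc1d13* and *Spout1* beside *Endog*, and *Shisa5* and *Atrip* beside *Trex1*, with log2 fold changes between -0.62 (*Mast1*) and 0.37 (*Snora70*). *Mir7091*, inside *Dnase1l1*, was not tested. *Atrip* ends 23 bases from *Trex1* on the same strand, and *Dnase1* shares 48 exon bases with *Trap1*, so a few reads there could belong to either gene.

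The pattern of *Dnase1l3* across the 8 libraries was matched by a Pearson correlation of log2 CPM with 9328 genes of at least 5 CPM, as a description in which the split between groups is shared by all points. The 10 genes most alike were *E2f5* (r = 0.981), *Ppargc1a*, *Sike1*, *Slc5a9*, *Arl15*, *Alpl*, *Abhd6*, *Zfp945*, *Zfp664* and *Arhgap30* (r = 0.958). In each of them all DKO libraries lay below all control libraries, beside 6.21% of all genes tested. As they were picked for likeness to *Dnase1l3*, whose groups do not overlap, nothing is read from this. *E2f5*, a repressive member of the E2F family, had 5.96, 5.63, 3.79 and 5.12 CPM in DKO cells and 11.5, 13.6, 14.3 and 15.8 CPM in control cells, with DKO 3 and control 1 the lowest of their groups as for *Dnase1l3*. *Ppargc1a*, which encodes the mitochondrial coactivator PGC-1alpha, had 9.64, 11.9, 7.94 and 8.25 CPM in DKO cells and 15.03, 20.3, 18.2 and 19.6 CPM in control cells, in the same order at both ends of the DKO group. *Slc5a9*, a sodium-coupled sugar transporter, had the largest difference of the 10 (11.3 CPM in DKO and 44.2 CPM in control cells, log2 fold change -1.97), still smaller than that of *Dnase1l3*. The 5 genes with the most opposite pattern were *Emc1* (r = -0.987), *Elp4*, *Rbm14*, *Bckdk* and *Cdc42se2* (r = -0.975). Among the other nucleases the correlation with *Dnase1l3* was -0.72 for *Dnase2a*, 0.67 for *Dnase1l2*, 0.48 for *Dnase1* and between -0.17 and 0.19 for the remaining 4.

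Genes that work with these enzymes were read in 6 lists, and 2 of their 75 tested genes were higher and 1 was lower. Their counts are set beside 2.65% higher and 1.93% lower among all genes tested, and a median log2 fold change of -0.01 over all genes. Of the further nucleases of DNA clearance 10 of 12 were tested and none passed by edgeR (2 of 10 at an unadjusted p under 0.05, beside 20.2% of all genes tested, median log2 fold change -0.12), with *Dnase2b* and *Trex2* at no count in any library. The p53 target nuclease *Aen* had 21.2, 24.5, 21.5 and 19.99 CPM in DKO and 18.2, 16.6, 16.4 and 16.3 CPM in control cells (log2 fold change 0.37, edgeR adjusted p = 0.078). *Tatdn1* and the interferon-stimulated exonuclease *Isg20* had log2 fold changes of -0.44 and -0.40 (edgeR adjusted p = 0.138 and 0.302).

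In the list of apoptotic DNA fragmentation and caspases 1 of 15 genes was lower and none was higher (median log2 fold change 0.06). *Casp6*, an executioner caspase that cleaves nuclear lamins, fell to 58.1, 55.2, 54.4 and 64.2 CPM in DKO cells, against 87.1, 77.3, 85.9 and 73.5 CPM in control cells (log2 fold change -0.48, standard error 0.09, edgeR adjusted p = 0.018). The groups did not overlap, but the call was lost without DKO 1, DKO 2 or DKO 3 (edgeR adjusted p = 0.0653, 0.0647 and 0.0727). *Dffa*, which encodes the inhibitor and chaperone of CAD, had 28.3, 28.9, 25.5 and 27.4 CPM in DKO and 30.02, 32.9, 33.6 and 34.9 CPM in control cells and did not pass (log2 fold change -0.26, edgeR adjusted p = 0.151). The initiator *Casp9* had 12.6 CPM in DKO and 8.78 CPM in control cells (log2 fold change 0.52, edgeR adjusted p = 0.0759).

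Of the genes that sense DNA in the cytosol and endosomes, 1 of 15 tested was higher and none lower (median log2 fold change -0.09). It was *Hmgb1*, an abundant chromatin protein that carries DNA to its receptors when released from dying cells, with 4403, 4524, 3752 and 3509 CPM in DKO cells and 1993, 2317, 3069 and 2278 CPM in control cells (log2 fold change 0.75, standard error 0.14, edgeR adjusted p = 0.0175). The call was lost without control 4, DKO 1 or DKO 2 (edgeR adjusted p = 0.062, 0.0656 and 0.0584), and reads of its processed pseudogenes could have been split in the counting. *Mb21d1*, which encodes cGAS, had 157, 213, 145 and 69 counts in DKO and 32, 49, 86 and 60 counts in control libraries. DKO 4 lay within the control range, and the log2 fold change of 1.37 (standard error 0.38) did not pass (edgeR adjusted p = 0.0664). It passed without DKO 4 (edgeR adjusted p = 0.0392) and by DESeq2 (adjusted p = 0.00765). The kinase *Tbk1*, downstream of the cGAS pathway, had 62.1 CPM in DKO and 49.2 CPM in control cells (log2 fold change 0.34, edgeR adjusted p = 0.0673). *Tlr9*, the endosomal DNA receptor, did not pass the filter, with 0.105 CPM in DKO and 0.117 CPM in control cells.

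None of 5 genes of the SET complex, in which TREX1 was found with other nucleases, and none of 6 genes around RNase H2 passed by edgeR, and none in either list had an unadjusted p under 0.05. The medians were -0.03 and -0.09. The SET members with the smallest p were *Anp32a*, *Nme1* and *Hmgb2*, and those of the second list the RNase H2 subunits *Rnaseh2a* and *Rnaseh2b* and the editing enzyme *Adar*. Among nucleases of DNA replication and repair 1 of 26 tested was higher and none lower (median log2 fold change 0.05). *Fen1*, which trims Okazaki fragment flaps, had 236, 226, 230 and 205 CPM in DKO and 176, 130, 144 and 177 CPM in control cells (log2 fold change 0.51, standard error 0.11, edgeR adjusted p = 0.0265), with no overlap of the groups. Leaving out any of DKO 1, 2 and 3 or control 2 and 3 ended that call (edgeR adjusted p between 0.0512 and 0.0888). *Dclre1c*, whose product Artemis opens the hairpins of V(D)J recombination, had 16.1 CPM in DKO and 21.3 CPM in control cells and did not pass (log2 fold change -0.40, edgeR adjusted p = 0.0792). *Ercc5*, an endonuclease of nucleotide excision repair, did not pass either (log2 fold change -0.64, edgeR adjusted p = 0.0881).

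**Figure D5:**
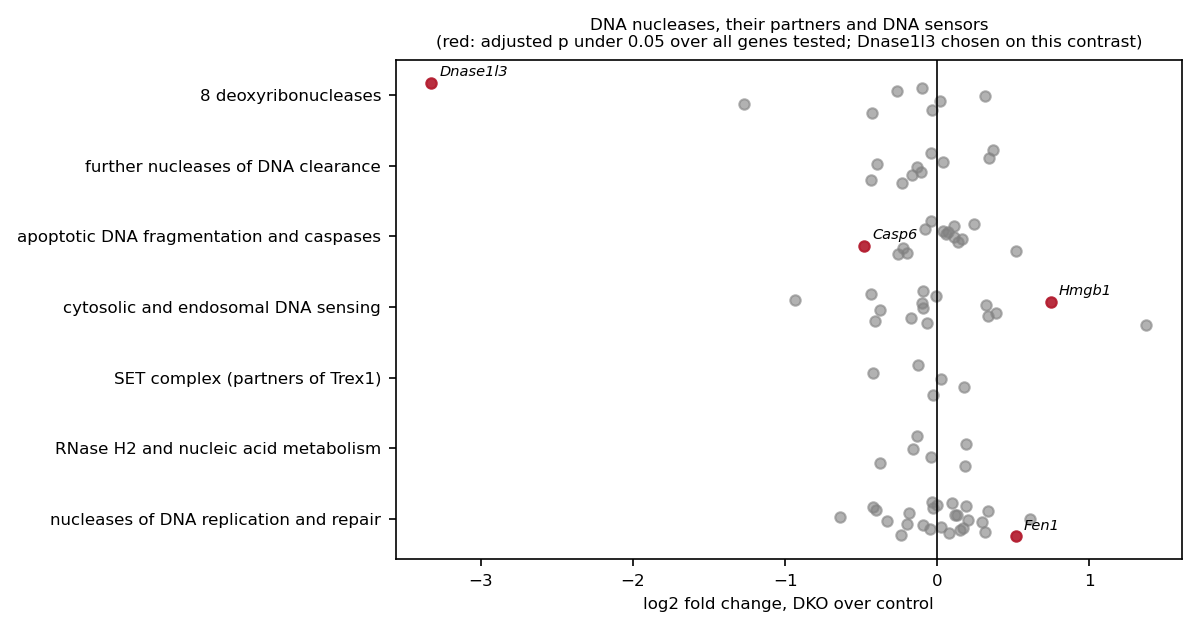
Log2 fold change of DKO over control (x axis) for each tested gene of 7 lists, 1 list per line, with genes at an adjusted p under 0.05 over all genes tested in red. *Dnase1l3* (-3.33) was chosen on this contrast, and of the other genes *Casp6* (-0.48), *Hmgb1* (0.75) and *Fen1* (0.51) are red.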

How the data were processed

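RNA of sorted pro-B cells was amplified with a SMART-seq protocol, 1 library per mouse, and the authors deposited raw, unnormalized counts per gene. These came from Trimmomatic, STAR and featureCounts (version and strandedness: not given in the sources used here). Submitters' notes name GRCm39, but 99.5% of the 24191 genes found by symbol in GENCODE M21 overlap their GRCm38 position, so positions are given in GRCm38. The 8 count columns, 1 for each library, entered the fits, and there were 0 further per-sample columns. Mitochondrial genes were not analysed here. Of counts between 2 and 21, 81.2% were even, against 58.0% of counts between 102 and 201; the cause was not tested, and intervals that take reads as independent may be too narrow.

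Library sizes were scaled by TMM. Genes were kept by filterByExpr at a minimum count of 10 and a total of 15. DKO and control libraries were compared by edgeR's quasi-likelihood test (edgeR 4.0.16, R 4.3.3) with genotype as the only term, Benjamini-Hochberg adjustment and a threshold of 0.05. CPM and RPKM were computed from the counts, TMM library sizes and the deposited exon lengths, and fitted log2 fold changes carry edgeR's default prior count. Markers, seed matches and neighbours were computed in Python 3.11.15. The fits were tested on simulated data with 200 changed genes. Counting error weighs most on genes with few reads, such as *Dnase1l2*, and its share of the spread between libraries was not computed.

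The members and lists were chosen with earlier results of these data known. The text names the members, the called genes of each list and otherwise its genes with the smallest p up to 3, the 10 genes most and 5 least like *Dnase1l3*, the neighbouring and overlapping genes (a few genes that this rule names are not reported here), and markers of lists that do not overlap between groups. *Tlr9*, the pro-B cell markers and the dendritic, monocyte, stroma and plasma cell genes were named for their role, their part of a sum or their call. They were named after their values were seen. Alternatives were other normalizations and filters, the likelihood ratio test, DESeq2 1.42.0, limma-voom (limma 3.58.1), a robust fit, a replicate block, *Xist* as a covariate, the removal of 10 hemoglobin genes, and leaving out each library; 3 settings based on marker sums were added after the data were seen.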

Additional observations from a re-analysis of the deposited data

Results flagged for a closer look

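Of 51 groups of 4 libraries checked over 26 genes, 4 had a library whose gap to the nearest other, as a share of the group's range, was above Dixon's 95% critical value, and chance gives this in about 1 of 20 groups. *Dnase1l3* was at 15 CPM in control 1, against 22.2 to 23.2 CPM in the other controls. *Dnase2a* was at 14.7 CPM in DKO 3, against 10.8 to 11.3 CPM in the other DKO libraries. *Aen* was at 18.2 CPM in control 1, against 16.3 to 16.6 CPM in the other controls. *Anp32a*, a subunit of the SET complex, was at 148 CPM in control 3, against 70.7 to 83.5 CPM in the other controls.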

How the results depend on the processing

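*Dnase1l3* had a log2 fold change between -3.83 and -3.03 over 14 alternatives that kept the libraries or restricted them by marker level, and between -3.78 and -3.06 without any 1 library. None of the other 7 nucleases passed the threshold under any alternative, but *Endog*, *Dffb* and *Trex1* changed sign among them, with log2 fold changes between -0.59 and 0.63, between -0.33 and 0.21 and between -0.10 and 0.15. The RPKM order kept 6 to 8 of 8 ranks over 10 alternatives.

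The counts of called genes moved more. Over all genes, 337 were higher and 245 lower, against 519 and 461 by the likelihood ratio test, 674 and 568 by DESeq2, 559 and 506 with *Xist* as a covariate, 79 and 32 with macrophage markers as a covariate, and 142 to 493 and 84 to 398 without 1 library. In the pathway lists 2 genes were higher and 1 lower, against 4 higher by the likelihood ratio test, 7 and 3 by DESeq2, 5 and 3 with *Xist*, 0 and 0 with macrophage markers, 3 lower with neutrophil markers, 9 and 5 in the 4 libraries low in neutrophil markers, and 0 to 3 and 0 to 2 without 1 library. Of the libraries left out in turn, control 1 gave the highest counts over all genes. The causes were not tested.

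With the replicate number as a block 94 genes were higher and 54 lower over all genes, and 0 and 0 in the pathway lists, where *Casp6*, *Hmgb1* and *Fen1* had adjusted p of 0.0965, 0.0679 and 0.0814 by edgeR. Deviations of same-numbered DKO and control libraries correlated between -0.20 and 0.05, and those of differently numbered ones between -0.22 and 0.23. The labels do not say whether the numbers pair the mice, and these correlations cannot decide it. Removing 10 hemoglobin genes, nearly without reads, changed no count. Depth limits *Dnase1l2*, with 37 reads in 4 DKO and 88 in 4 control libraries (exact Poisson intervals 26.1 to 51.0 and 70.6 to 108, counting error only).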

Other observations

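Across the 8 libraries some of the nucleases varied together or in opposition. *Dnase1* and *Dnase1l1* had a Pearson correlation of 0.80 in log2 CPM, and *Dffb* and *Endog* one of -0.80. The points share library depth and the difference in neutrophil markers, and no test was made. *Dffb* had 25.5 CPM in DKO 1, 23.8 CPM in DKO 2 and 21.1 CPM in control 1, where *Endog* had 4.00, 4.58 and 4.80 CPM.

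Of the 8 neutrophil marker genes none passed the threshold by edgeR. Their sum was 315, 623, 2278 and 1849 CPM in DKO libraries and 2740, 434, 541 and 2899 CPM in control libraries. Erythroid markers summed to 19.8 to 47.0 CPM in DKO and 41.9 to 118 CPM in control libraries, monocyte markers to 342 to 798 and 416 to 1041 CPM, T and NK cell markers to 22.6 to 66.6 and 14.5 to 78.3 CPM, stroma and endothelium markers to 53.0 to 65.8 and 44.3 to 69.7 CPM, and plasma cell markers to 303 to 423 and 247 to 343 CPM, in the same order of groups. All these ranges overlap, but single genes differed. By edgeR 1 of 6 tested monocyte markers was higher (*F13a1*, adjusted p = 0.0375), beside 2.65% of all genes tested. Of 5 tested stroma and endothelium markers 1 was lower (*Cxcl12*, 1.56 CPM in DKO and 4.30 CPM in control cells, edgeR adjusted p = 0.0322), beside 1.93%. Most of that sum was *Pecam1* (53.9 and 44.7 CPM), and most of the plasma cell sum *Xbp1* (273.5 and 210.9 CPM).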
